A study of Homo sapiens with 18 samples.

Results

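The enzymes described here lead from acetyl-CoA to mevalonate and on to the isoprenoid diphosphates. They were chosen by name as 8 genes, ACAT2, HMGCS1, MVK, PMVK, MVD, IDI1, FDPS and GGPS1, out of 20802 genes on the panel, and each symbol matched 1 row. All 8 passed the filter on low counts, at over 100 counts in the sum of all libraries, so that all were among the 10246 tested genes. They were measured in RKO cells, an established human colorectal carcinoma line, 72 h after transfection with siRNA at 30 nM. In 2 groups the siRNA was nontargeting (siCtrl#1, siCtrl#2), in 2 it was directed against Tsg101 (siTsg101#1, siTsg101#2) and in 2 against Vps28 (siVps28#1, siVps28#2). Tsg101 and Vps28 are subunits of ESCRT-I, a complex that sorts membrane proteins into endosomes for degradation in lysosomes. Each group had 3 replicates, one in each of 3 batches, and all 18 libraries came from the same unmodified parental line, so that the depletion was transient and the control cells also received an siRNA and the transfection reagent.

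The mevalonate pathway builds activated isoprene units from acetyl-CoA, and its products feed cholesterol synthesis, dolichol and ubiquinone synthesis and the lipid tails of prenylated proteins. ACAT2 joins a pair of acetyl-CoA molecules and HMGCS1 adds another to give HMG-CoA. After its reduction to mevalonate, MVK and PMVK add phosphates, MVD removes carbon dioxide to give isopentenyl diphosphate, and IDI1 interconverts this with its isomer. FDPS and GGPS1 then lengthen the chain to farnesyl and geranylgeranyl diphosphate. Genes of this pathway are known targets of SREBP2, a transcription factor that is released from the endoplasmic reticulum when sterols are scarce and that often acts beside the CCAAT-binding factor NF-Y and the GC-box-binding factor SP1.

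The targeted genes were checked in every library. TSG101 had 346 to 688 counts with siCtrl#1, 8 to 34 with siTsg101#1 and 16 to 30 with siTsg101#2. VPS28 had 364 to 514 counts with siCtrl#1, 12 to 34 with siVps28#1 and 30 to 45 with siVps28#2. Library depth ranged from 2561790 to 7466916 counted reads, and single libraries held between 40 counts, for GGPS1, and 2387 counts, for HMGCS1, of a member gene. Among epithelial markers, EPCAM had 21 to 82 counts, KRT8 14 to 133 and KRT18 166 to 517 in all libraries, whereas CDH1 was at 0 and KRT19 had at most 1 count. The colon marker CDX2 had 71 to 213 counts, and KRT20, VIL1, MUC2 and LGALS4 had at most 2. Of 11 markers of leukocytes, fibroblasts and endothelium, COL1A1 reached 11 counts and the others at most 2.

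Sequence upstream of the transcription start was read for the 7 members with an entry in the RefSeq promoter table of GRCh38.p14, which did not include ACAT2. For 6 of them 1 window of 250 bases is shown, because 4 of these genes (HMGCS1, MVK, MVD and IDI1) rose together and 2 (FDPS and PMVK) did not pass the test in any comparison with a nontargeting siRNA. GGPS1, which also rose, is not shown, and its 3 windows hold 0, 1 and 0 CCAAT. HMGCS1 and IDI1 have 2 and 3 windows in the table, of which the one shown was picked by hand with the motif matches known. The other window of HMGCS1 holds 0 CCAAT, and the others of IDI1 hold 3 and 0. The windows lie at chr5:43313413-43313662 on the minus strand (HMGCS1), chr12:109573544-109573793 on the plus strand (MVK), chr16:88663092-88663341 on the minus strand (MVD), chr10:1049120-1049369 on the minus strand (IDI1), chr1:155308616-155308865 on the plus strand (FDPS) and chr1:154936720-154936969 on the minus strand (PMVK). Each sequence is written 5′ to 3′ on the strand of its gene and ends at the base before the start site. Capitals mark the letters CCAAT, the motif of NF-Y, and the letters GGGCGG, a GC box, each on either strand.
HMGCS1: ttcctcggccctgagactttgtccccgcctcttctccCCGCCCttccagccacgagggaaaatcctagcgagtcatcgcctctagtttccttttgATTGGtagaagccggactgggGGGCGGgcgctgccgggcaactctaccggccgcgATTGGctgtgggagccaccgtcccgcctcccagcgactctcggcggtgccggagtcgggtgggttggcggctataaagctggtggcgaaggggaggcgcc
MVK: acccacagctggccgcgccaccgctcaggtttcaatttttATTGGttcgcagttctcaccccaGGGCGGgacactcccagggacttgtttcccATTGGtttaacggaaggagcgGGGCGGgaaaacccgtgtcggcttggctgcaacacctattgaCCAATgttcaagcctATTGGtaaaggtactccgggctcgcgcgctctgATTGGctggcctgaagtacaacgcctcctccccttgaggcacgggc
MVD: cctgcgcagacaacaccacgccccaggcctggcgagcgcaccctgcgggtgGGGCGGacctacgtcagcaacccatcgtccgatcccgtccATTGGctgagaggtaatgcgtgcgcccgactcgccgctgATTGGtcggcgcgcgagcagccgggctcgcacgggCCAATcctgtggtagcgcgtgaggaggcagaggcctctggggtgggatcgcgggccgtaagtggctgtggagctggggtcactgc
IDI1: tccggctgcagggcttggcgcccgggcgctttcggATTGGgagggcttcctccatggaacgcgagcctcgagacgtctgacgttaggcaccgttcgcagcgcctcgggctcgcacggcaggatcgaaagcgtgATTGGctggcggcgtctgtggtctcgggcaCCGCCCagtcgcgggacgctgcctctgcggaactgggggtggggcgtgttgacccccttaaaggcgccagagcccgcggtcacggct
FDPS: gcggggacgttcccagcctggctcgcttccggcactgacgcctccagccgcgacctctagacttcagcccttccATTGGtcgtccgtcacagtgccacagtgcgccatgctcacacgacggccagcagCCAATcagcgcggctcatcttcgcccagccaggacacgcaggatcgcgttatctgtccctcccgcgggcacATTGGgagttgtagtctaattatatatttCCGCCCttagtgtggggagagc
PMVK: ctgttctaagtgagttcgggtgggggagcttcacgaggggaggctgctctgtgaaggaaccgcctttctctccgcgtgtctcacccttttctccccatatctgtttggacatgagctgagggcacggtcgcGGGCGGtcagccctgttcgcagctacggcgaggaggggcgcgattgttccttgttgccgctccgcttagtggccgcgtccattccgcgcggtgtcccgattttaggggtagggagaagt

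These windows hold 2 CCAAT matches for HMGCS1, 5 for MVK, 3 for MVD, 2 for IDI1 and 3 for FDPS, whereas the PMVK window holds 1 GGGCGG and no CCAAT. Over all windows of a gene, from 250 bases before to 50 after each start, CCAAT was found on either strand in 6 of the 7 members, all but PMVK, and in 39.72% of the 27305 genes of the table. GGGCGG was found in 7 of 7 members and in 48.30% of genes. The sterol element letters CACCCCAC were found in 0 of 7 members and 3.39% of genes. The looser CACNCCAC, which includes CACCCCAC, was found in 1 of 7, in another window of IDI1, and in 7.05% of genes. CACGTG was found in 0 of 7 members and 8.77% of genes. Genes with several start sites, as IDI1 and GGPS1 have, were searched over more sequence than the others. The MVK window shares 211 bases with that of MMAB, which encodes a cobalamin adenosyltransferase and is transcribed in the opposite direction.

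With Tsg101 or Vps28 depleted, 6 of the 8 enzymes rose: ACAT2, HMGCS1, MVK, MVD, IDI1 and GGPS1 passed the test with each of the 4 siRNAs against siCtrl#1. HMGCS1 rose most, 9.63-fold in the mean of the 4 siRNAs, IDI1 rose 3.52-fold, and the other 4 rose between 2.14- and 2.30-fold. Against siCtrl#2 the log2 fold change of HMGCS1 in the mean of the 4 siRNAs was 2.50 ± 0.153 (SE), compared with 3.27 ± 0.163 against siCtrl#1, and GGPS1 passed with both siTsg101 siRNAs but with neither siVps28 siRNA. PMVK and FDPS did not pass the test with any of the 4 siRNAs. A gene passed when its Benjamini-Hochberg adjusted p from edgeR's quasi-likelihood test was under 0.05 and its change at least 1.5-fold, with n = 3 libraries in each group. Of all tested genes, 11.6% passed upward with siTsg101#1 and 10.1% with siTsg101#2, while the siVps28#1 and siVps28#2 shares were 4.85% and 7.09%, and 2.55% passed upward with each of the 4 siRNAs. In the mean of the 4 siRNAs 8.40% of all tested genes passed upward and 6.57% downward. No member passed downward in any of these comparisons, and the count was also 0 at an unadjusted p under 0.05 and with DESeq2. In these bulk libraries, fewer cells of a type and less RNA per cell cannot be told apart.

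**Figure D1:**
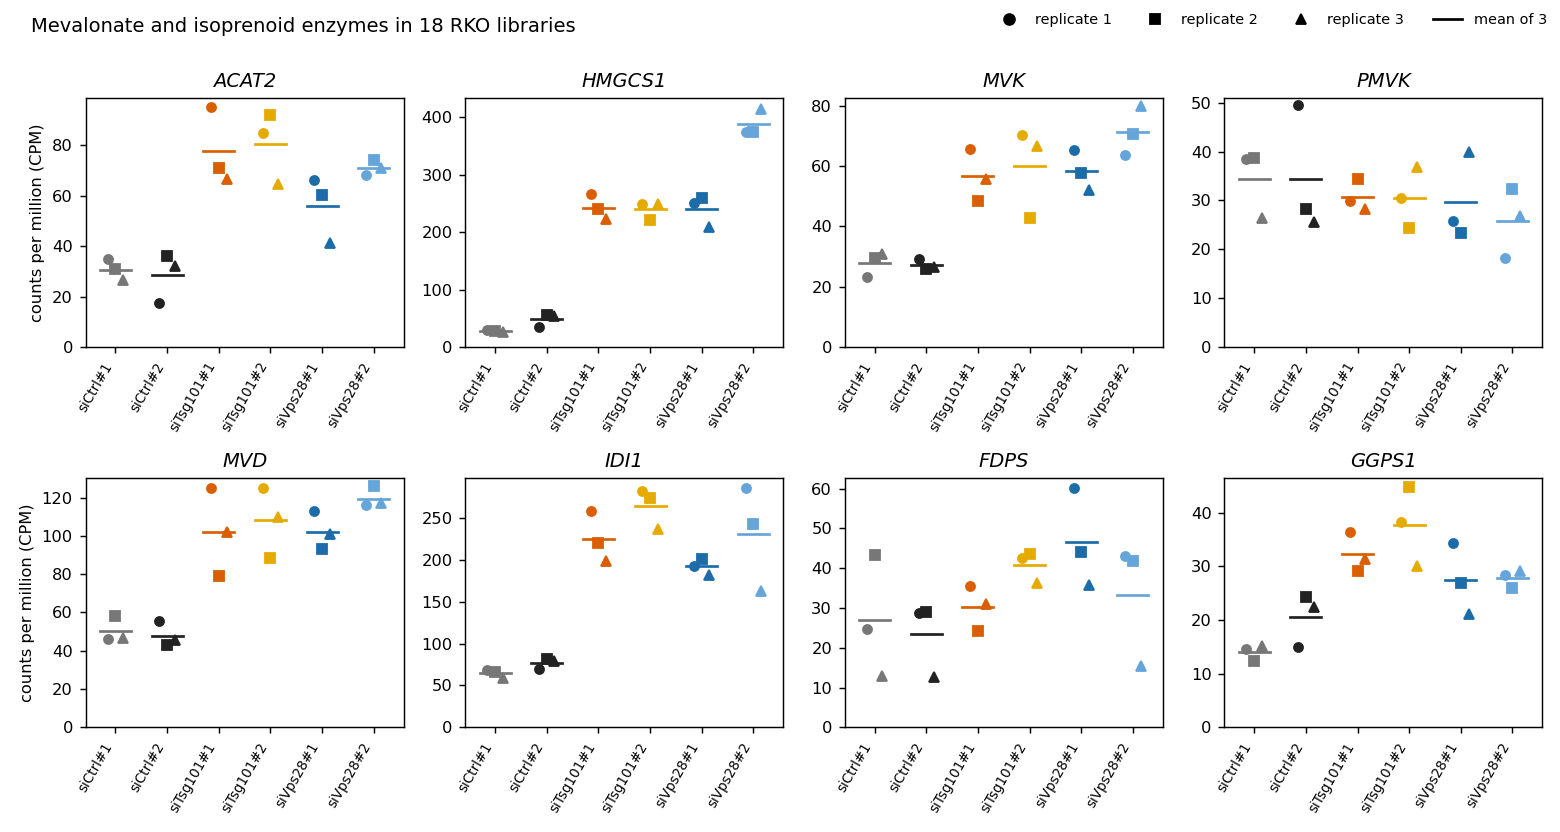
Counts scaled to library size (CPM, linear axis from 0) of the 8 enzyme genes in each of the 18 libraries. Points are libraries, with the marker shape giving the replicate number, and bars are means of 3 replicates; HMGCS1 lies between 209 and 415 in the 12 libraries with an on-target siRNA and between 26.5 and 55.1 in the 6 nontargeting libraries.

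ACAT2, the acetyl-CoA acetyltransferase of the cytosol, was measured at 34.8, 31.1 and 26.4 CPM with siCtrl#1 (replicates 1 to 3) and at 17.5, 36.3 and 32.3 CPM with siCtrl#2. It reached 95.1, 71.2 and 66.7 CPM with siTsg101#1 and 84.9, 92.2 and 64.6 CPM with siTsg101#2. With siVps28#1 the libraries had 66.1, 60.2 and 41.3 CPM, and with siVps28#2 they had 68.3, 74.3 and 70.9 CPM. All 12 on-target libraries lay above all 6 nontargeting libraries, the nearest being siVps28#1 replicate 3. The log2 fold change against siCtrl#1 was 1.2 ± 0.192 (SE) in the mean of the 4 siRNAs (adjusted p = 7.89e-05) and was smallest with siVps28#1, at 0.86 ± 0.228 (adjusted p = 0.0179). That last call was lost when siVps28#1 replicate 1 (adjusted p = 0.0923), siVps28#1 replicate 2 (0.0635), siCtrl#1 replicate 2 (0.0548) or siCtrl#1 replicate 3 (0.0812) was left out. Exons of ACAT2 (GRCh37, chromosome 6, 160183077 to 160200144, plus strand) overlap 587 bases of genes on the other strand, mostly TCP1, and the strand setting of the counting is not given in the sources used here.

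HMGCS1, the cytosolic HMG-CoA synthase, had 29.8, 28.3 and 26.5 CPM with siCtrl#1 and 34.5, 55.1 and 54.1 CPM with siCtrl#2. Its level was 266, 240 and 223 CPM with siTsg101#1 and 249, 222 and 250 CPM with siTsg101#2. The siVps28#1 libraries had 251, 260 and 209 CPM and the siVps28#2 libraries 374, 374 and 415 CPM. No on-target library came near a nontargeting one, and the 3 siVps28#2 libraries stood above the other 9 on-target libraries. Against siCtrl#1 the log2 fold change was 3.11 ± 0.178 (SE) and 3.09 ± 0.177 with siTsg101#1 and siTsg101#2, and 3.09 ± 0.177 and 3.78 ± 0.181 with siVps28#1 and siVps28#2, and the largest adjusted p of the 4 was 6.56e-11. In order of mean level the groups were siCtrl#1 (28.2 ± 1.62 CPM, SD), siCtrl#2 (47.9 ± 11.6), siVps28#1 (240 ± 27.3), siTsg101#2 (241 ± 16.0), siTsg101#1 (243 ± 21.9) and siVps28#2 (388 ± 23.5). The libraries of the middle 3 overlapped, those of siTsg101#1 and siVps28#2 did not but were not compared by a test, and siCtrl#2 is compared below with siCtrl#1 and with the on-target siRNAs. HMGCS1 lies on chromosome 5 (GRCh37, 43287572 to 43313614, minus strand), where 2497 of its exon bases overlap an antisense noncoding gene.

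Among the enzymes that carry mevalonate to isopentenyl diphosphate, MVK, the mevalonate kinase, had 23.2, 29.5 and 30.8 CPM with siCtrl#1 and 29.2, 26.0 and 26.4 with siCtrl#2. It had 65.7, 48.6 and 55.7 CPM with siTsg101#1 and 70.3, 42.8 and 66.6 CPM with siTsg101#2. For Vps28, the values were 65.3, 57.8 and 52.2 CPM with siVps28#1 and 63.6, 70.7 and 79.9 CPM with siVps28#2. The on-target and the nontargeting libraries did not overlap. Its log2 fold change in the mean of the 4 siRNAs was 1.14 ± 0.161 (SE, adjusted p = 2.02e-05). MMAB, whose promoter window overlaps that of MVK, rose by 1.05 ± 0.193 on the log2 scale (adjusted p = 0.000329) and passed with all 4 siRNAs. The 2 genes share 225 exon bases on opposite strands, and MVK lies at 110011060 to 110035930 of chromosome 12 (GRCh37, plus strand).

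PMVK, the phosphomevalonate kinase that acts on the product of MVK, had 38.4, 38.8 and 26.4 CPM with siCtrl#1 and 49.5, 28.2 and 25.6 with siCtrl#2. With siTsg101#1 it had 29.8, 34.4 and 28.3 CPM and with siTsg101#2 30.6, 24.4 and 36.8 CPM. Its values for Vps28 were 25.7, 23.4 and 39.9 CPM with siVps28#1 and 18.3, 32.3 and 26.9 CPM with siVps28#2. All groups overlapped. The log2 fold change in the mean of the 4 siRNAs was -0.23 ± 0.203 (SE, adjusted p = 0.442), with a 95% confidence interval from -0.65 to 0.19, so that a rise of the size seen for MVK lay outside the interval. PMVK is on chromosome 1 (GRCh37, 154897216 to 154909195, minus strand), and its exons overlap those of no other gene.

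MVD, the mevalonate diphosphate decarboxylase, had 45.9, 58.1 and 46.9 CPM with siCtrl#1 and 55.6, 42.8 and 45.4 with siCtrl#2. It had 125, 78.8 and 102 CPM with siTsg101#1 and 125, 88.6 and 110 CPM with siTsg101#2. With siVps28#1 the libraries had 113, 93.2 and 101 CPM, and with siVps28#2 they had 116, 126 and 117 CPM. Every on-target library exceeded every nontargeting one, and in both siTsg101 groups replicate 2 was the lowest. The log2 fold change in the mean of the 4 siRNAs was 1.10 ± 0.149 (SE, adjusted p = 1.23e-05). MVD lies on chromosome 16 (GRCh37, 88718343 to 88729569, minus strand) with no overlapping exons.

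IDI1, the isopentenyl diphosphate isomerase, had 68.6, 65.8 and 58.4 CPM with siCtrl#1 and 69.8, 81.1 and 79.5 with siCtrl#2. Its values were 258, 220 and 198 CPM with siTsg101#1 and 282, 273 and 237 CPM with siTsg101#2. The siVps28#1 libraries had 192, 201 and 182 CPM and the siVps28#2 libraries 286, 243 and 163 CPM. Here too the on-target and nontargeting libraries were apart, and siVps28#2 had the widest spread. The log2 fold change in the mean of the 4 siRNAs was 1.82 ± 0.156 (SE, adjusted p = 3.17e-08), and it was between 1.58 and 2.04 with the single siRNAs. The gene (GRCh37, chromosome 10, 1085092 to 1095059, minus strand) overlaps an antisense noncoding gene, IDI2-AS1, over 643 exon bases, and 0.91% of its stretches of 50 bases also occur in the pseudogene IDI1P1.

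FDPS, the farnesyl diphosphate synthase, had 24.8, 43.4 and 13.0 CPM with siCtrl#1 and 28.7, 28.9 and 12.7 with siCtrl#2. It had 35.5, 24.2 and 31.1 CPM with siTsg101#1 and 42.6, 43.5 and 36.3 CPM with siTsg101#2. For Vps28, the values were 60.3, 44 and 35.8 CPM with siVps28#1 and 43.0, 41.9 and 15.3 CPM with siVps28#2. The groups overlapped, and the 3 lowest values all came from batch 3, in the libraries of siCtrl#1, siCtrl#2 and siVps28#2. The log2 fold change in the mean of the 4 siRNAs was 0.50 ± 0.298 (SE, adjusted p = 0.242; 95% confidence interval -0.12 to 1.11), an interval that also holds changes of the size seen for MVD. With siVps28#1 it was 0.82 ± 0.365 (adjusted p = 0.177), and with the batch as a block 0.87 (adjusted p = 0.0426), which passed. Without siCtrl#1 replicate 2, the highest control library, FDPS passed in the mean of the 4 siRNAs (1.00, adjusted p = 0.0447), with siTsg101#2 (1.14, adjusted p = 0.0473) and with siVps28#1 (1.32, adjusted p = 0.0436). Without siCtrl#1 replicate 3, the lowest library of that group, the same values were 0.14 (adjusted p = 0.809), 0.27 (adjusted p = 0.657) and 0.46 (adjusted p = 0.522). FDPS (GRCh37, chromosome 1, 155278539 to 155290457, plus strand) overlaps 693 exon bases of the antisense RUSC1-AS1.

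GGPS1, the geranylgeranyl diphosphate synthase, had 14.5, 12.3 and 15.1 CPM with siCtrl#1 and 15.0, 24.2 and 22.5 with siCtrl#2. It had 36.3, 29.1 and 31.4 CPM with siTsg101#1 and 38.3, 44.8 and 30.1 CPM with siTsg101#2. With siVps28#1 the libraries had 34.4, 26.8 and 21.2 CPM, and with siVps28#2 they had 28.4, 26.0 and 29.2 CPM. All 12 on-target libraries lay above the siCtrl#1 libraries and 11 of them above all nontargeting libraries, the exception being siVps28#1 replicate 3. The log2 fold change in the mean of the 4 siRNAs was 1.14 ± 0.181 (SE, adjusted p = 7.46e-05). With siVps28#1 it was 0.96 ± 0.218 (adjusted p = 0.00613), and that call was lost without siVps28#1 replicate 1 (0.77, adjusted p = 0.0513). GGPS1 (GRCh37, chromosome 1, 235490665 to 235507847, plus strand) shares 1422 exon bases with another coding gene on the same strand, so that their reads may not be separable.

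**Figure D2:**
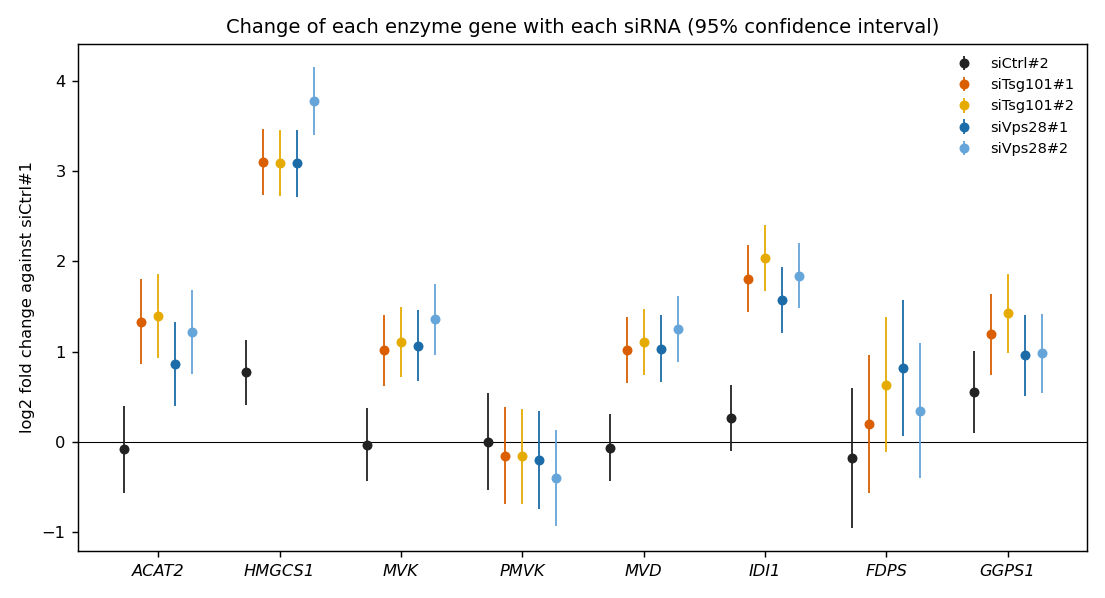
Log2 fold change against siCtrl#1 of the 8 enzyme genes (horizontal axis) with siCtrl#2 and the 4 on-target siRNAs, as points with 95% confidence intervals from edgeR (n = 3 libraries per group). HMGCS1 stands at 3.09 to 3.78 with the on-target siRNAs and at 0.77 with siCtrl#2, and the intervals of PMVK include 0 with every siRNA.

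The median log2 fold change of the 8 members was 1.10 and 1.25 with siTsg101#1 and siTsg101#2, 0.99 and 1.23 with siVps28#1 and siVps28#2, and it was 1.14 in the mean of the 4 siRNAs. Over all tested genes the medians of these comparisons lay between -0.01 and 0.01. The 4 comparisons share the siCtrl#1 libraries, so their resemblance to each other is not independent evidence. The summed level of the 5 epithelial markers also differed between groups, at 95.1 to 112 CPM with siCtrl#1, 102 to 114 with siCtrl#2, 78.7 to 98.0 and 75.8 to 87.4 with siTsg101#1 and siTsg101#2, and 71.1 to 79.7 and 85.5 to 112 with siVps28#1 and siVps28#2. Its part in the changes of the enzymes was not tested.

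Within the batches, each of which holds 1 library of every siRNA, the mean of the 4 on-target libraries was compared with the siCtrl#1 library on the log2 CPM scale. HMGCS1 was higher by 3.22, 3.23 and 3.29 in batches 1 to 3, IDI1 by 1.87, 1.82 and 1.72 and ACAT2 by 1.15, 1.23 and 1.16. MVK was higher by 1.5, 0.86 and 1.02, MVD by 1.37, 0.71 and 1.18 and GGPS1 by 1.21, 1.30 and 0.86. For these 6 genes all 4 on-target libraries exceeded the siCtrl#1 library in every batch. FDPS differed by 0.84, -0.22 and 1.09 and PMVK by -0.58, -0.45 and 0.30, so that neither kept its sign over the batches against siCtrl#1. Against the siCtrl#2 library of the batch, FDPS was higher in all 3, by 0.63, 0.36 and 1.12, and PMVK differed by -0.94, 0.0024 and 0.34.

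**Figure D3:**
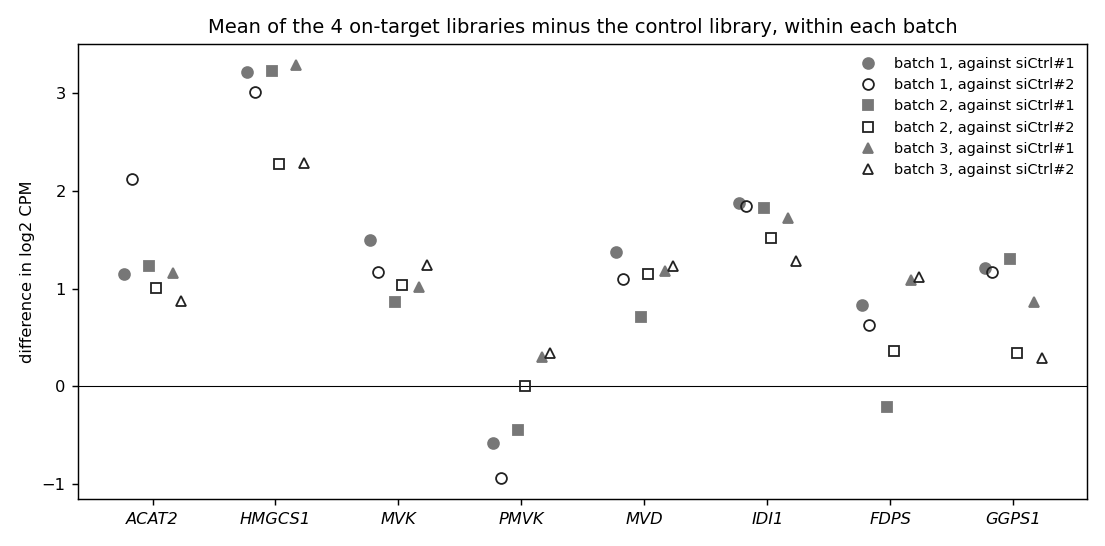
Difference in log2 CPM between the mean of the 4 on-target libraries and the control library of the same batch, for each of the 8 enzyme genes and 3 batches. Filled grey markers use siCtrl#1 and open black markers siCtrl#2; 6 genes lie above 0 in every batch with either control, while PMVK and FDPS fall on both sides of 0 against siCtrl#1.

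The 2 nontargeting siRNAs were compared to see how far the members varied without ESCRT-I depletion. HMGCS1 was higher with siCtrl#2 than with siCtrl#1 by 0.77 ± 0.173 on the log2 scale (SE, adjusted p = 0.0176), the only member to pass, while 1.40% of all tested genes passed upward. The call was lost without siCtrl#1 replicate 1 (adjusted p = 0.0507), replicate 2 (0.0706) or replicate 3 (0.0837) and without siCtrl#2 replicate 2 (0.0927) or replicate 3 (0.135). GGPS1 differed by 0.55 ± 0.220 (adjusted p = 0.23), and the other 6 members by -0.18 to 0.26, the smallest adjusted p being 0.543. Measured against siCtrl#2, HMGCS1 had a log2 fold change of 2.34 and 2.32 with siTsg101#1 and siTsg101#2 and of 2.32 and 3.01 with siVps28#1 and siVps28#2. GGPS1 then passed with siTsg101#1 (0.64, adjusted p = 0.0353) and siTsg101#2 (0.87, adjusted p = 0.00432) but not with siVps28#1 (0.40, adjusted p = 0.34) or siVps28#2 (0.43, adjusted p = 0.208).

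Against siCtrl#2, 5 members (ACAT2, HMGCS1, MVK, MVD and IDI1) thus passed with all 4 siRNAs, where 1.53% of all tested genes did so upward, and 6 passed in the mean of the 4, where 6.09% did. Against the mean of both nontargeting siRNAs, 6 members passed with all 4 siRNAs, where 1.90% of all genes did, and 6 in the mean of the 4, where 7.33% did. FDPS then had a log2 fold change of 0.59 ± 0.229 (SE, adjusted p = 0.0562) and PMVK of -0.23 ± 0.158 (adjusted p = 0.289).

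Depletion of Tsg101 was next compared with depletion of Vps28, taking the mean of both siRNAs of each gene. No member passed with edgeR or with DESeq2, while 4.12% of all tested genes were higher with Tsg101 depleted and 2.08% lower. At an unadjusted p under 0.05 there were 3 members. HMGCS1 was lower with Tsg101 depleted by -0.34 ± 0.112 on the log2 scale (SE, adjusted p = 0.052, 95% confidence interval -0.57 to -0.11). With the batch as a block its adjusted p was 0.0461, under the threshold, and the change remained below 1.5-fold. Against siCtrl#1, the log2 fold change of HMGCS1 was 3.11 and 3.09 with siTsg101#1 and siTsg101#2, 3.09 with siVps28#1 and 3.78 with siVps28#2. Only siVps28#2 stood apart from the other on-target siRNAs. Within the batches HMGCS1 differed by -0.25, -0.43 and -0.32 between Tsg101 and Vps28 depletion, ACAT2 by 0.42, 0.28 and 0.28, GGPS1 by 0.25, 0.45 and 0.30 and IDI1 by 0.20, 0.15 and 0.33, each with 1 sign in all 3 batches. Over all libraries ACAT2 was at 0.32 ± 0.153 (adjusted p = 0.185, interval 0.01 to 0.64) and GGPS1 at 0.34 ± 0.143 (adjusted p = 0.133, interval 0.04 to 0.63). For the other 5 members the differences lay between -0.17 and 0.21, and the widest interval was that of FDPS, from -0.69 to 0.35.

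Between the siRNAs to the same gene, no member passed for siTsg101#1 against siTsg101#2, with edgeR or DESeq2, and 0 members had an unadjusted p under 0.05. Of all tested genes 3.20% passed upward and 3.74% downward in that comparison. HMGCS1 differed by 0.01 ± 0.158 (SE, 95% confidence interval -0.31 to 0.34) and FDPS by -0.44 ± 0.358 (interval -1.18 to 0.30). For siVps28#1 against siVps28#2, 0.215% of all tested genes passed upward and 0.273% downward, and HMGCS1 was the 1 member that passed, lower with siVps28#1 by -0.69 ± 0.159 (SE, adjusted p = 0.0479). This value lies close to the threshold, and leaving out any one of 17 of the 18 libraries, siCtrl#2 replicate 1 being the exception, gave an adjusted p from 0.0509 to 0.275 with a difference between -0.60 and -0.75. VPS28 itself was at 12 to 34 raw counts with siVps28#1 and 30 to 45 with siVps28#2, in libraries of unequal depth. Scaled to library size, the log2 fold change of VPS28 against siCtrl#1 was similar, at -4.15 with siVps28#1 and -4.07 with siVps28#2.

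The members were also compared with each other over the 18 libraries, which differ in siRNA, so that correlations of log2 CPM mostly follow the difference between on-target and nontargeting libraries. The correlation of each gene with the mean of the other 7 was 0.95 for IDI1, 0.94 for MVD, 0.91 for HMGCS1, 0.88 for MVK, 0.85 for ACAT2, 0.76 for GGPS1, 0.51 for FDPS and -0.37 for PMVK. The closest pair was MVK and MVD, with r = 0.97 over the libraries and 0.75 after the group means were removed. ACAT2 and GGPS1 had r = 0.89 over the libraries and 0.85 within groups, whereas HMGCS1 and IDI1, with r = 0.95 over the libraries, had 0.21 within groups. Of the genes that are not members, those most like the mean of the 8 members over the 18 libraries were IRAK2 (r = 0.96), MSMO1 (0.95), TFRC (0.94), DHCR7 (0.94) and PLK3 (0.93).

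The next steps of the pathway were described from lists of its genes. Of all tested genes, 8.40% passed upward in the mean of the 4 siRNAs and 2.55% with each of the 4. Of 13 genes that lead from farnesyl diphosphate through squalene to cholesterol, 12 were tested, and 7 passed upward in the mean of the 4 siRNAs, as well as with each siRNA, with none downward at an unadjusted p under 0.05 or with DESeq2. MSMO1, a sterol C4-methyl oxidase, changed by 2.26 ± 0.209 on the log2 scale, DHCR7, a sterol reductase, by 1.99 ± 0.16, NSDHL, a sterol dehydrogenase, by 1.81 ± 0.174 and SQLE, the squalene epoxidase, by 1.72 ± 0.170 (SE, adjusted p at most 2.37e-07). NSDHL was also higher with Tsg101 than with Vps28 depleted (0.84, adjusted p = 0.000104), the 1 gene of the list to pass there. FDFT1, the squalene synthase that uses the product of FDPS, rose by 1.55 ± 0.176 (adjusted p = 1.34e-06). The median of the 12 genes was 1.23, beside 1.14 for the 8 upstream members. With siCtrl#2 against siCtrl#1 none of the 12 passed, and 3 were higher at an unadjusted p under 0.05. SQLE was then at 0.61 (adjusted p = 0.129), FDFT1 at 0.55 (adjusted p = 0.178), MSMO1 at 0.29, NSDHL at 0.25 and DHCR7 at -0.10.

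Of 10 genes of SREBP control and cholesterol uptake, all were tested and 6 passed upward, none downward at an unadjusted p under 0.05 or with DESeq2, with a median of 0.74. Of these 6, 4 passed with each of the 4 on-target siRNAs. The shares of all tested genes were 8.40% in the mean and 2.55% with each of the 4. NPC1, a lysosomal cholesterol exporter, rose by 1.41 ± 0.138, and INSIG2 and INSIG1, which hold SREBP back in the endoplasmic reticulum, by 1.36 ± 0.260 and 1.14 ± 0.170 (SE, adjusted p at most 0.000518). INSIG2, at 3.6 CPM with siCtrl#1, did not pass with siVps28#1 (0.97, adjusted p = 0.0586). It was also higher with Tsg101 than with Vps28 depleted (0.68, adjusted p = 0.0221). INSIG1 differed between siTsg101#1 and siTsg101#2 (-0.75, adjusted p = 0.0195). MBTPS1, the protease that makes the first cut in SREBP, was at 0.78 (adjusted p = 0.00106) in the mean of the 4 siRNAs but also passed with the nontargeting siCtrl#2, at 0.91 (adjusted p = 0.0124). It had 27.2 CPM with siCtrl#1, 51.6 with siCtrl#2 and 43.4 to 49.4 in the on-target groups, so that every on-target mean lay below that of siCtrl#2. SREBF2, which encodes SREBP2, was at 0.52 ± 0.137 (adjusted p = 0.00775) in the mean of the 4 siRNAs, below the 1.5-fold limit. It passed with siVps28#1 (0.59, adjusted p = 0.0271) but not with siTsg101#1 (0.37, adjusted p = 0.105). With siTsg101#2 (0.55, adjusted p = 0.0229) and siVps28#2 (0.56, adjusted p = 0.0245) it missed the fold limit only. Of 7 genes that supply acetyl-CoA or are relatives of the members, 4 were tested and none passed in the mean of the 4 siRNAs with edgeR or DESeq2, 1 of them with an unadjusted p under 0.05. ACAT1, the mitochondrial relative of ACAT2, was at -0.30 ± 0.16 (adjusted p = 0.187) in that mean. With siTsg101#1 alone ACAT1 fell by 1.11 on the log2 scale (adjusted p = 0.00056), whereas its values were 0.03 with siTsg101#2, 0.01 with siVps28#1 and -0.135 with siVps28#2. The difference of ACAT1 between siTsg101#1 and siTsg101#2 also passed, at -1.14 (adjusted p = 0.00147). IDI2, the relative of IDI1, had 0 counts in all libraries.

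Genes that use the products of FDPS and GGPS1 were counted in the same way, beside 8.40% of all tested genes upward and 6.57% downward in the mean of the 4 siRNAs, and the counts lie near these shares. Of 10 genes of protein prenylation, 1 passed upward and 1 downward, with a median of 0.08. RABGGTB, a subunit of the enzyme that attaches geranylgeranyl groups to Rab proteins, was 0.90 ± 0.166 higher than with siCtrl#1 (SE, adjusted p = 0.000329). With siCtrl#2 RABGGTB was already 0.69 higher than with siCtrl#1 (adjusted p = 0.0706), and its mean level was 97.4 CPM with siCtrl#1, 157 with siCtrl#2 and 176 to 192 in the on-target groups. ICMT, which methylates prenylated proteins, fell by 0.69 on the log2 scale (adjusted p = 0.00133). Of 18 genes of dolichol, ubiquinone and other isoprenoid use, TRIT1, a tRNA isopentenyltransferase, passed upward at 0.71 ± 0.221 (adjusted p = 0.0223) and none downward, with edgeR or DESeq2. COQ8A, the 1 gene with an unadjusted p under 0.05 downward, was at -0.52 ± 0.148 (adjusted p = 0.0125), below the 1.5-fold limit. Among the single on-target siRNAs COQ8A passed downward with siVps28#2 only (-1.06, adjusted p = 0.00064). TRIT1 did not pass with siVps28#1 (0.26, adjusted p = 0.655), where its mean of 9.68 CPM lay below the 11.5 CPM of siCtrl#2, itself 0.51 above siCtrl#1 on the log2 scale (adjusted p = 0.403). The median of these 18 was -0.09.

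**Figure D4:**
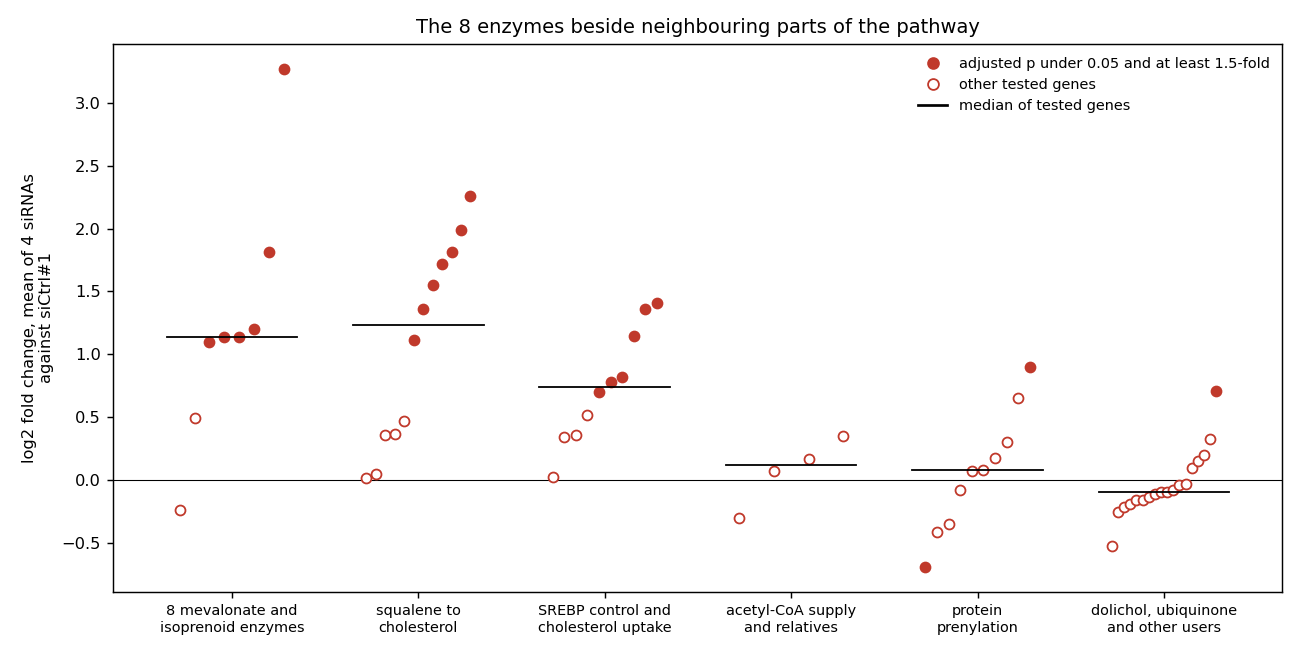
Log2 fold change in the 4 on-target siRNAs together against siCtrl#1 for the 8 enzymes and the tested genes of 5 neighbouring lists, each point a gene, sorted within its list, with filled points for genes that passed the test and bars for medians. The medians are 1.14 for the 8 enzymes, 1.23 from squalene to cholesterol, 0.74 for SREBP control and uptake, 0.12 for acetyl-CoA supply, 0.08 for prenylation and -0.09 for dolichol, ubiquinone and other users.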

How the data were processed

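RNA of RKO cells was measured in 18 Ion AmpliSeq Transcriptome libraries, sequenced by Ion Proton. Reads were mapped by the authors (Torrent Mapping Alignment Program, hg19 panel sequences) and counted with HTSeq 0.6.0, and the values they deposited are raw counts per transcript target, without normalization. The strand setting and the position of the amplicons are not given in the sources used here. Amplified reads carry no molecular identifiers. An amplicon reads only a short part of a transcript, so levels were not compared between genes.

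Of 20802 rows, 20228 matched a gene symbol. The 10 spike-in rows, with 1 read in all, were left out. Rows whose counts summed to over 100 were kept (10632), and 386 noncoding genes were left out, as in the study's methods. Counts were scaled by TMM and fitted in edgeR 4.0.16 (R 4.3.3) with 1 mean per group over all 18 libraries, and contrasts were tested with the quasi-likelihood test and Benjamini-Hochberg adjustment over 10246 genes. CPM are TMM-scaled, except the summed levels of the epithelial markers, which were scaled to counted reads alone. The log2 CPM used a prior count of 2. The fits were tested on simulated data, in which 2-fold decreases were called clearly less often than 2-fold increases. A first requirement on calls at every fold size was not met for these decreases and was replaced, after this was seen, by one on larger changes, bias and false calls, so that a 2-fold decrease could be missed here. Groups, replicates and batches come from the labels, and the study describes the RNA-seq replicates as 3 independent experiments. The replicate number is the batch in the labels, which is where the pairing for the block comes from. Deviations from group means correlated at 0.145 on average over the 45 pairs with the same number, with a range from -0.147 to 0.389. Over pairs with other numbers the mean was -0.0729. Deviations cancel out within each group, which ties this mean to the same-number mean, so it is not a separate check.

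Members, gene lists and markers were chosen with earlier results of these data known. The text names the 8 members, TSG101, VPS28, MMAB and the markers, at most 4 genes with the largest mean change per list, the genes closest to the members by correlation, and, chosen after their values were seen, FDFT1, SREBF2, MBTPS1 and IDI2. Some genes counted in the lists are not reported here by name. Exon overlaps and shared 50-base stretches were computed on the GENCODE annotation of GRCh37 over whole genes, and promoter windows on GRCh38.p14. Stretches shared with genes of no overlapping exons made up 3.53% in GGPS1, 1.84% in FDPS and 0.91% in IDI1. The share was 0.29% in MVK, 0.19% in MVD and 0.03% in HMGCS1, with none in ACAT2 or PMVK. Alternatives were DESeq2 1.42.0, RLE scaling, dropping the low-count filter, requiring 10 or more counts in each library, noncoding rows kept, siCtrl#2 or both nontargeting siRNAs as reference, the replicate block, the adjusted p alone, separate fits of the groups in each contrast, and each library left out.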

Additional observations from a re-analysis of the deposited data

Results flagged for a closer look

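The increase of HMGCS1 differed between the 2 siRNAs against Vps28 by the test of the difference itself, with a log2 difference of -0.69 for siVps28#1 against siVps28#2 (edgeR, adjusted p = 0.0479), and the 3 siVps28#2 libraries (374 to 415 CPM) lay above the 3 siVps28#1 libraries (209 to 260 CPM). The call was lost when any one of 17 libraries was left out, with an adjusted p from 0.0509 to 0.275. No other member passed in the comparisons of 2 on-target siRNAs or of Tsg101 with Vps28 depletion, and in the latter 3 members had an unadjusted p under 0.05.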

How the results depend on the processing

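The counts of members that passed were recomputed under the alternatives for 10 results, and 247 of the 272 counts stayed within 1.5 times the main count. The 6 calls in the mean of the 4 siRNAs stayed at 6 under every alternative that kept all libraries. For siCtrl#2 against siCtrl#1 the count of members fell from 1 to 0 when only the groups compared were fitted, and leaving out single libraries gave 0 to 1. For siVps28#1 against siVps28#2 it fell from 1 to 0 with noncoding rows kept and when only the groups compared were fitted, and leaving out single libraries gave 0 to 1. The cause was not tested. Without a low-count filter FDPS passed with siTsg101#2 (0.64, adjusted p = 0.018) and with siVps28#1 (0.82, adjusted p = 0.0028). The replicate block changed 1 call, that of FDPS with siVps28#1 (0.87, adjusted p = 0.0426), and no other.

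Of 1880 log2 fold changes recomputed, 31 changed sign, none of them of a value that had passed. For siCtrl#2 against siCtrl#1, PMVK turned from -0.00077 to 0.0032 without a low-count filter, 0.00036 with noncoding rows kept and 0.0025 when only the groups compared were fitted. Leaving out single libraries gave, for siCtrl#2 against siCtrl#1, -0.28 to 0.17 for ACAT2, -0.54 to 0.31 for FDPS, -0.17 to 0.045 for MVD, -0.15 to 0.050 for MVK and -0.34 to 0.18 for PMVK. For siTsg101#1 against siTsg101#2 it gave -0.24 to 0.051 for ACAT2, -0.064 to 0.085 for HMGCS1, -0.26 to 0.057 for MVD, -0.29 to 0.043 for MVK and -0.14 to 0.16 for PMVK. For siVps28#1 against siVps28#2 the ranges were -0.22 to 0.13 for GGPS1 and -0.075 to 0.40 for PMVK. FDPS ranged from -0.17 to 0.70 with siTsg101#1 and from -0.014 to 0.84 with siVps28#2 against siCtrl#1. By total reads GGPS1 (2432), PMVK (2698) and FDPS (2953) were the members with the fewest. Their SE in the mean of the 4 siRNAs did not follow the reads alone, at 0.181, 0.203 and 0.298 in this order. ACAT2, with 5245 reads, had an SE of 0.192. The part of read number in the precision was not tested.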
